A study of Mus musculus with 12 samples.

Results

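The genes described here encode the nuclear subunits of the 5 protein complexes of oxidative phosphorylation, measured as RNA in whole mouse kidney. Members were the rows of the count table whose mouse symbol has the naming pattern of a subunit of complex I (Nduf), complex II (Sdh), complex III (Uqcr), complex IV (Cox4 to Cox8) or complex V, the ATP synthase (Atp5). The rule took 84 of 13124 genes: 38 of complex I, 4 of complex II, 8 of complex III, 16 of complex IV and 18 of complex V. Of these 84, 82 are protein-coding in the RefSeq gene table and 2, Cox5b-ps and Atp5l2-ps, are pseudogenes. A further 21 symbols of that table match the rule without a row, 5 of them protein-coding (Cox4i2, Cox7b2, Cox8c, Ndufb4b and Ndufb4c), and were not analysed here. The subunits that mitochondrial DNA encodes have no row in the table and were not analysed here. Ndufa4 is grouped with complex I by its name, although its protein has been reassigned to complex IV.

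The respiratory chain passes electrons from NADH (through complex I) and from succinate (through complex II) to ubiquinone, then through complex III and cytochrome c to oxygen at complex IV. Complexes I, III and IV pump protons as they do so, and complex V makes ATP from the proton gradient. In the kidney, tubular reabsorption consumes much ATP, and the proximal tubule is especially rich in mitochondria.

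The study used kidneys of male C57BL/6 mice in 4 groups of 3, all taken 24 h after surgery and perfused with saline. The first group had ischemia-reperfusion injury (IRI, a period without blood flow and its return) 24 h after an antibody against the G-CSF receptor (anti-G-CSFR, clone VR81). G-CSF is the cytokine that drives neutrophil production. The second had IRI 24 h after an antibody against complement component C5 (anti-C5, clone BB5.1), and the third had IRI 24 h after an isotype control antibody. The fourth was sham-operated, labelled untreated with no antibody named, so isotype against sham joins the injury and the injection. The labels call the injury model unilateral and do not say which kidney was taken. Each library is from the whole tissue of 1 kidney and so is a mix of all renal cell types. Kidneys are numbered as in the labels: anti-G-CSFR 7, 8 and 9, anti-C5 10, 11 and 12, isotype 4, 5 and 6, and sham 1, 2 and 3.

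Library totals ran from 13200930 to 16324215 counts. Each group had kidneys in which the members stood apart from the rest of the group. Kidney 9 was the lowest anti-G-CSFR kidney for 81 of 84 members (39.0% of all genes), kidney 11 the lowest anti-C5 kidney for 82 (37.3%), and kidney 4 the highest isotype kidney for 78 (45.0%). Kidney 12 was the highest anti-C5 kidney for 78 (34.2%), and kidney 1 the lowest sham kidney for 74 (35.9%). Some marker sums moved with these positions and others did not. Summed over 10 proximal tubule genes, the levels were 46700, 47600 and 27400 CPM in anti-G-CSFR kidneys 7, 8 and 9, 38400, 27800 and 49400 in anti-C5 kidneys 10, 11 and 12, 16900, 11700 and 10500 in isotype kidneys 4, 5 and 6, and 34200, 33900 and 38500 in sham kidneys 1, 2 and 3. Kap, an androgen-regulated gene, made up most of this sum. The other 9 genes summed to 10300, 10700 and 9580 CPM with anti-G-CSFR, 11100, 7570 and 9760 with anti-C5, 2360, 1810 and 1630 with isotype and 11100, 10900 and 12000 in sham, so the low sum of kidney 9 came mainly from Kap. All 10 of these genes fell in isotype against sham (median log2 change -2.66, range -3.36 to -1.12) and rose under anti-G-CSFR (2.42) and anti-C5 (2.30) against isotype. The 6 genes of the loop and distal tubule went the other way in kidney 4, with 7010, 6740 and 6370 CPM with anti-G-CSFR, 7940, 5800 and 6500 with anti-C5, 3980, 5650 and 5110 with isotype and 7750, 8260 and 7760 in sham. The sum of the 6 collecting duct genes was also lowest in kidney 4 within its group (261 CPM, against 335 and 298 in kidneys 5 and 6). Aqp2 (117, 198 and 178 CPM in kidneys 4, 5 and 6), Aqp3 and Scnn1g were lowest in kidney 4. Avpr2, Atp6v1b1 and Slc4a1 were highest there, so these genes were split. Summed over 6 neutrophil genes, levels were 2.71, 1.72 and 2.27 CPM with anti-G-CSFR, 7.19, 109 and 12.9 with anti-C5, 86.7, 38 and 105 with isotype, and 9.72, 8.69 and 7.4 in sham. Kidney 11 thus had the highest neutrophil sum of all 12. The 3 fibroblast genes summed to 280 CPM in kidney 9 and 390 in kidney 11, against 90.5 to 143 in the other antibody-treated kidneys, 466 to 543 with isotype and 107 to 164 in sham. The part that cell composition had in the results below was not tested, and in whole tissue fewer cells of a type and less RNA per cell cannot be told apart.

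The members were low as a block in the isotype kidneys, and in the kidneys given either antibody they were near or above the sham level. Their share of all counts was 3.371%, 3.38% and 2.792% in anti-G-CSFR kidneys 7, 8 and 9 and 3.087%, 2.618% and 3.615% in anti-C5 kidneys 10, 11 and 12. It was 2.002%, 1.585% and 1.586% in isotype kidneys 4, 5 and 6, and 2.671%, 2.928% and 2.867% in sham kidneys 1, 2 and 3. The isotype group overlapped with no other group. Kidney 11 was below all 3 sham kidneys, and kidney 9 lay within their range.

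A gene was called where edgeR's quasi-likelihood test gave a Benjamini-Hochberg adjusted p below 0.05 over all 13124 genes, and only called genes are said to have risen or fallen. In isotype against sham, 76 of 84 members fell, where 30.7% of all genes did. No member rose (32.1% of all genes did), and all 84 log2 changes were negative by edgeR, so none was higher at an unadjusted p below 0.05. DESeq2 and limma-voom called no rise either. The median log2 change of the members was -0.88 and the range -1.93 to -0.34, beside a median of 0.03 over all genes. For 79 members all 3 isotype kidneys were below all 3 sham kidneys (33.7% of all genes). In anti-G-CSFR against isotype, 83 members rose, where 31.5% of all genes did, with a median of 1.19 beside -0.02 for all genes. In anti-C5 against isotype, 82 members rose, where 30.5% did, with a median of 1.11 beside -0.01. The isotype kidneys were below all kidneys of the antibody group for 82 members in each of these comparisons (33.0% of all genes for anti-G-CSFR and 31.7% for anti-C5). No member fell in either, where 32.0% and 29.8% of all genes did, by edgeR; Cox8b was the member with a negative change, in anti-C5 against isotype, at an unadjusted p above 0.05, and DESeq2 and limma-voom called no fall. These 3 comparisons share the isotype kidneys, so their counts are not independent of each other.

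Without kidneys 4, 9 and 11, a choice made after the data were seen, 82 members fell in isotype against sham with a median of -1.09. Under the same choice 82 rose in anti-G-CSFR against isotype with a median of 1.54, and 82 rose in anti-C5 against isotype with a median of 1.44. A test across all 4 groups called 83 members (61.0% of all genes), Cox5b-ps being the exception with an adjusted p of 0.11.

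In all 5 complexes the isotype kidneys were the lowest. The median log2 level of complex I members relative to the sham mean was 0.43, 0.45 and 0.03 in anti-G-CSFR kidneys 7, 8 and 9, 0.18, -0.09 and 0.61 in anti-C5 kidneys 10, 11 and 12, and -0.54, -1.08 and -1.09 in isotype kidneys 4, 5 and 6. For complex II it was 0.24, 0.18 and -0.19 with anti-G-CSFR, 0.08, -0.37 and 0.30 with anti-C5, and -0.96, -1.26 and -1.31 with isotype. Complex II was thus lower than complex I in every kidney given an antibody or isotype. For complex IV the values were 0.47, 0.56 and 0.01 with anti-G-CSFR, 0.15, -0.10 and 0.60 with anti-C5, and -0.54, -0.93 and -0.86 with isotype. Complex III followed complex I, at 0.45, 0.44 and 0.02 with anti-G-CSFR, 0.18, -0.12 and 0.64 with anti-C5, and -0.52, -1.08 and -1.06 with isotype. So did complex V, at 0.45, 0.41 and 0.03 with anti-G-CSFR, 0.19, -0.09 and 0.61 with anti-C5, and -0.61, -1.03 and -1.04 with isotype. The sham kidneys lay between -0.14 and 0.12 in all 5 complexes, with kidney 1 lowest.

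**Figure D1:**
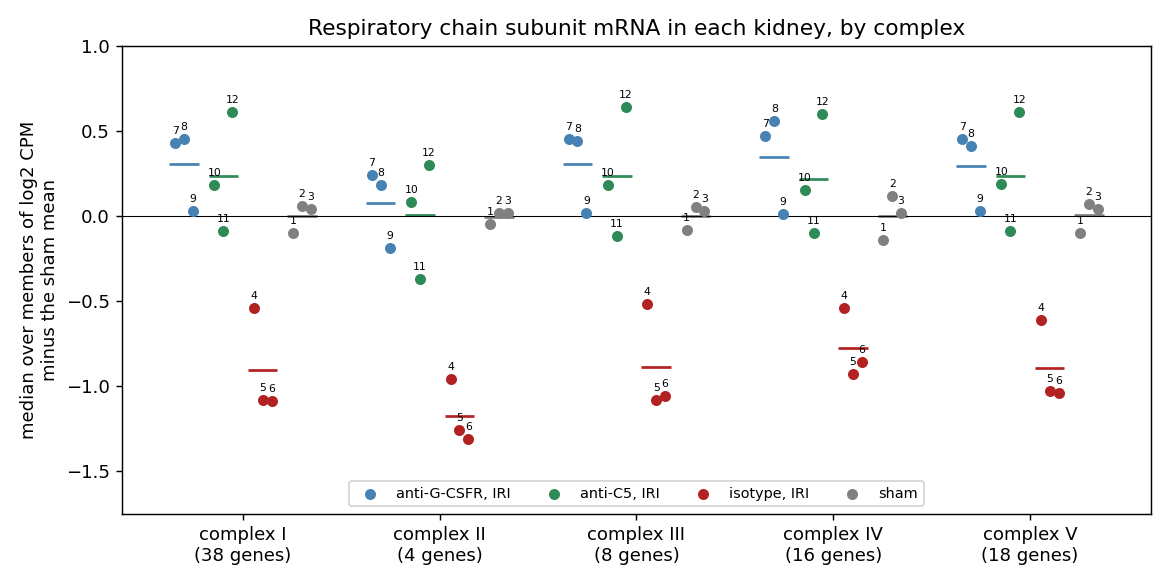
Each point is the median, over the members of 1 complex, of log2 CPM in 1 kidney minus the sham mean (y axis); the x axis gives the complex and its number of genes, colours the 4 groups, numerals the kidneys and bars the group mean. In all 5 complexes the 3 isotype kidneys sit below every other kidney, with kidney 4 highest among them, and kidneys 9 and 11 sit lowest in the antibody groups.

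Members that moved together were also compared by the letters of their promoters. RefSeq windows of 300 bases (250 before to 50 after a start, build GRCm38.p6) were found for 68 of 84 members, 73 windows in all, and searched on both strands for 5 short motifs of factors known to act on such genes. The NRF1 motif GCGCANGCGC was in 18 windows (24.7%), beside 9.25% for the other genes of the table and 4.60% of all windows. The GABP motif CCGGAAG was in 17 (23.3%, beside 16.6% and 8.86%), and the ERR motif AAGGTCA in 8 (11.0%, beside 3.34% and 4.72%). The YY1 motif AAGATGGCG was in 7 (9.59%, beside 2.78% and 1.40%), and the CREB motif TGACGTCA in 4 (5.48%, beside 2.77% and 1.79%). In all, 39 windows (53.4%) held at least 1 of the 5, beside 30.3% and 19.1%. A match is a run of letters and not a measured binding site.

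The stretches printed below lie before the start, 5′ to 3′ on the gene's own strand, with motif matches in capitals. They were picked after the matches were seen: 1 member of each complex with a match before the start, then Cox7a1 and Atp5g1, which had the largest log2 changes of complexes IV and V in isotype against sham and whose windows hold none of the 5 motifs.
Ndufs5 (chr4:123718203-123718352, minus strand, NRF1 match 98 to 89 bases before the start): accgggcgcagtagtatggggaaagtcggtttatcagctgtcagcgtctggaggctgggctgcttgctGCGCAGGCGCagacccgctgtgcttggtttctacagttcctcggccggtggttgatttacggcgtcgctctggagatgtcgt
Sdhd (chr9:50603850-50603909, minus strand, GABP match 46 to 40 bases before the start): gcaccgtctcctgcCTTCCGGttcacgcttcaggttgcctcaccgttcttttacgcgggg
Uqcrh (chr4:116075072-116075221, minus strand, GABP match 10 to 4 bases before the start): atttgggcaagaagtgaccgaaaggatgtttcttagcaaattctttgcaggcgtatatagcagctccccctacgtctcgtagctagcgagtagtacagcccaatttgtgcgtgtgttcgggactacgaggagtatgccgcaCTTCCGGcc
Cox6a1 (chr5:115348982-115349129, minus strand, NRF1 matches 162 to 153 and 117 to 108 bases before the start): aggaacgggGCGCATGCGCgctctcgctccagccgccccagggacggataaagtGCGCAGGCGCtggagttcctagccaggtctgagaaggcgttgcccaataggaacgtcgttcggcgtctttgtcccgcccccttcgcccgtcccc
Cox7a1 (chr7:30183994-30184143, plus strand, no match): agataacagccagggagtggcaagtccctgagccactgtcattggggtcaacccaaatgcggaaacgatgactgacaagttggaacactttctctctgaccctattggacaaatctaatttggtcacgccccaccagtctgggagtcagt
Atp5g3 (chr2:73911327-73911476, minus strand, ERR match 52 to 46 bases before the start): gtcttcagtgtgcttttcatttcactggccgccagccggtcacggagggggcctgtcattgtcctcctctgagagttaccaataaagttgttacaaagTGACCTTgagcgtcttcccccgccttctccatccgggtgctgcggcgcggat
Atp5g1 (chr11:96075671-96075820, minus strand, no match): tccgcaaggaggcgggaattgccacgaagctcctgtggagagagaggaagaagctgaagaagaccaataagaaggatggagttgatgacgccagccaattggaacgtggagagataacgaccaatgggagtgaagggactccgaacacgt

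**Figure D2:**
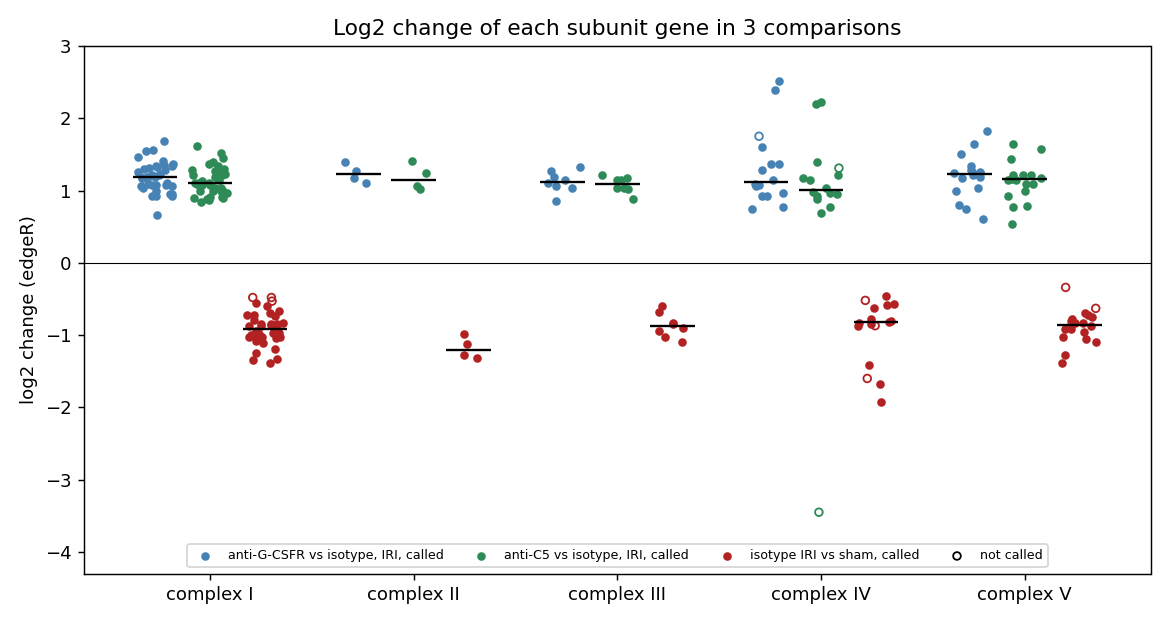
Each point is the log2 change (y axis) of 1 member in 1 of 3 comparisons (colour), grouped by complex on the x axis; filled points passed the test at an adjusted p below 0.05, open points did not, and black bars are medians. Points of both antibody comparisons lie above 0 in every complex, except Cox8b at -3.45 in anti-C5 against isotype, and all points of isotype against sham lie below 0.

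Complex I oxidises NADH. Of its members 35 of 38 fell in isotype against sham (median -0.92), and all 38 rose under anti-G-CSFR (1.19) and anti-C5 (1.10) against isotype. All 7 members of the catalytic core, which bind the flavin and the iron-sulfur clusters, fell with a median of -1.04, as did 26 of 29 accessory members with a median of -0.86. Ndufs1, the largest core subunit, had 398, 383 and 329 CPM in anti-G-CSFR kidneys 7, 8 and 9, 416, 289 and 357 in anti-C5 kidneys 10, 11 and 12, 175, 158 and 152 in isotype kidneys 4, 5 and 6, and 428, 409 and 432 in sham kidneys 1, 2 and 3. Every isotype kidney was below every other kidney, and every anti-G-CSFR kidney was below every sham kidney. Its log2 change was -1.39 ± 0.138 (SE, edgeR adjusted p = 1.09e-05) relative to sham under isotype, 1.19 ± 0.138 (3.18e-05) relative to isotype under anti-G-CSFR and 1.13 ± 0.138 (5.53e-05) relative to isotype under anti-C5.

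Ndufv1, which holds the NADH site, had 391, 367 and 319 CPM with anti-G-CSFR, 384, 275 and 370 with anti-C5, 199, 181 and 178 with isotype and 381, 363 and 392 in sham, a log2 change of -1.03 ± 0.136 (6.49e-05) in isotype against sham. Its isotype kidneys were below the other 9 and the lowest kidney of each antibody group, 9 or 11, was also below sham. Among accessory members, Ndufa6 had 262, 283 and 202 CPM with anti-G-CSFR, 225, 170 and 315 with anti-C5, 96.2, 70.6 and 65.6 with isotype and 176, 204 and 204 in sham. Its rise under anti-G-CSFR against isotype, 1.68 ± 0.222 (6.91e-05), was the largest of complex I. Ndufb10, an accessory subunit of the membrane arm, had 299, 285 and 214 CPM with anti-G-CSFR, 257, 193 and 328 with anti-C5, 117, 76.5 and 76.9 with isotype and 207, 241 and 239 in sham, a change of -1.34 ± 0.218 (2.57e-04) in isotype against sham. Kidney 4 was the highest isotype kidney for each of these 4 genes, and more so for the accessory pair than for the core subunits.

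Ndufs5, whose promoter stretch has an NRF1 match, had 109, 115 and 84.1 CPM with anti-G-CSFR, 97.7, 75.8 and 116 with anti-C5, 63.4, 40.3 and 43.9 with isotype and 79.1, 89.1 and 87.1 in sham. Its change was -0.79 ± 0.191 (0.00353) in isotype against sham, with no overlap of these groups. Ndufa7, Ndufb1 and Ndufa1 were the members of complex I that did not pass the test in that comparison, with log2 changes of -0.48, -0.53 and -0.48. The largest isotype value was kidney 4's in each, for example 112 CPM of Ndufa1, against 69.5 and 71.4 in kidneys 5 and 6 and 111, 124 and 119 in sham. Ndufa4l2, a paralog of Ndufa4 known to respond to hypoxia, had 3.17, 3.13 and 3.03 CPM with anti-G-CSFR, 2.82, 4.99 and 3.32 with anti-C5, 2.56, 1.66 and 1.66 with isotype and 4.22, 3.24 and 3.29 in sham. Isotype kidneys 5 and 6 were below the minimum of about 2 CPM in 3 libraries for a row, so Ndufa4l2 had its row through kidneys of other groups. A lower isotype level was thus favoured in advance. Ndufa4l2 fell in isotype against sham (-0.86 ± 0.261, 0.0124), a call lost without kidney 1 (-0.73). Its rise under anti-G-CSFR (0.66 ± 0.264, 0.0448) was not called with library totals in place of TMM scaling (0.45), with the 6 libraries of that comparison alone, or without kidney 1, 2, 3, 5, 6, 7, 8, 9 or 12 (0.55 to 0.70).

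Complex II, succinate dehydrogenase, is the complex whose subunits are all encoded in the nucleus. All 4 members fell in isotype against sham, with a median of -1.21, and all 4 rose under anti-G-CSFR (1.23) and anti-C5 (1.15). Sdha, the flavoprotein that oxidises succinate, had 915, 936 and 892 CPM in anti-G-CSFR kidneys 7, 8 and 9, 991, 719 and 853 in anti-C5 kidneys 10, 11 and 12, 427, 437 and 403 in isotype kidneys 4, 5 and 6, and 1070, 1020 and 1060 in sham kidneys 1, 2 and 3. The isotype kidneys were below the other 9, and all 6 antibody-treated kidneys were below all 3 sham kidneys. The change was -1.31 ± 0.127 (9.11e-06) for isotype over sham, 1.11 ± 0.126 (2.84e-05) in anti-G-CSFR against isotype and 1.02 ± 0.126 (6.20e-05) in anti-C5 against isotype. In anti-C5 against sham it was -0.30 ± 0.125, with an unadjusted p of 0.0345 and an adjusted p of 0.405 by edgeR, so it was not called. Sdhb, the iron-sulfur subunit, had 524, 485 and 365 CPM with anti-G-CSFR, 467, 347 and 567 with anti-C5, 211, 155 and 153 with isotype and 400, 422 and 443 in sham, with changes of -1.28 ± 0.198 (1.80e-04), 1.40 ± 0.198 (1.09e-04) and 1.41 ± 0.198 (1.34e-04) in the same 3 comparisons. Sdhd, a membrane anchor with a GABP match in its promoter stretch, had 667, 653 and 489 CPM with anti-G-CSFR, 550, 481 and 745 with anti-C5, 320, 207 and 222 with isotype and 465, 513 and 502 in sham. It changed by -0.98 ± 0.203 (0.00131), 1.27 ± 0.204 (2.52e-04) and 1.24 ± 0.204 (3.48e-04). Unlike Sdha, Sdhb and Sdhd were above all sham kidneys in anti-G-CSFR kidneys 7 and 8 and anti-C5 kidneys 10 and 12. The other anchor, Sdhc, changed by -1.13, 1.18 and 1.06.

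Complex III carries electrons from ubiquinol to cytochrome c. Its 8 members all fell in isotype against sham (median -0.87) and all rose under anti-G-CSFR (1.12) and anti-C5 (1.09). The core proteins Uqcrc1 and Uqcrc2 and the Rieske iron-sulfur protein Uqcrfs1 fell with a median of -1.02 and the 5 small accessory members with a median of -0.83. Uqcrfs1 had 535, 513 and 371 CPM with anti-G-CSFR, 491, 355 and 579 with anti-C5, 237, 206 and 204 with isotype and 443, 465 and 472 in sham. Kidneys 9 and 11 were below sham and the isotype kidneys were lowest, and the change in isotype against sham was -1.10 ± 0.182 (3.07e-04). Uqcrh, the hinge protein at the cytochrome c1 interface, with a GABP match close to its start, had 579, 657 and 435 CPM with anti-G-CSFR, 448, 392 and 700 with anti-C5, 307, 174 and 183 with isotype and 355, 427 and 402 in sham. All 3 anti-G-CSFR kidneys were above all sham kidneys here, and its changes were -0.83 ± 0.259 (0.0145), 1.33 ± 0.262 (9.62e-04) and 1.21 ± 0.261 (0.00193). The fall of Uqcrh in isotype against sham was not called without kidney 5 (-0.69) or without kidney 6 (-0.71).

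Complex IV, cytochrome c oxidase, has nuclear subunits around a core that mitochondrial DNA encodes, and several exist as paired isoforms. Of 16 members, 13 fell in isotype against sham (median -0.82), 15 rose under anti-G-CSFR (1.12) and 14 with anti-C5 (1.00). Among the 10 main or only isoforms 9 fell, with a median of -0.79. Of the 4 minor isoforms Cox6b2 and Cox7a1 fell; Cox6a2 and Cox8b met the minimum for a row (about 2 CPM) mostly in kidneys of other groups, so no summary over the 4 is given. Cox4i1, the largest nuclear subunit, had 1080, 1180 and 873 CPM with anti-G-CSFR, 892, 754 and 1310 with anti-C5, 670, 452 and 484 with isotype and 676, 860 and 772 in sham. Its isotype kidneys were below sham by a narrow margin in kidney 4, and the change of -0.52 ± 0.219 (0.0541) was not called. It was called without kidney 4 (-0.72) and by DESeq2 and limma-voom (-0.54 by each). Cox6a1, with a pair of NRF1 matches in its stretch, had 634, 585 and 448 CPM with anti-G-CSFR, 542, 441 and 708 with anti-C5, 345, 324 and 322 with isotype and 442, 518 and 506 in sham. It changed by -0.57 ± 0.175 (0.0142) in isotype against sham, without overlap. Cox5a and Cox5b, the subunits on the matrix side, fell by 0.80 and 0.87 on the log2 scale.

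Cox7a1, the isoform known from heart and skeletal muscle, had 20.1, 23.1 and 12.6 CPM in anti-G-CSFR kidneys 7, 8 and 9, 14.2, 11.9 and 19.4 in anti-C5 kidneys 10, 11 and 12, 4.83, 2.15 and 2.68 in isotype kidneys 4, 5 and 6, and 11.1, 14.3 and 11.9 in sham kidneys 1, 2 and 3. The isotype kidneys were far below all others. Its changes were -1.93 ± 0.312 (2.49e-04) for isotype over sham, 2.52 ± 0.312 (4.74e-05) in anti-G-CSFR against isotype and 2.22 ± 0.312 (1.34e-04) in anti-C5 against isotype. Its general counterpart Cox7a2 had 537, 566 and 406 CPM with anti-G-CSFR, 410, 355 and 627 with anti-C5, 272, 170 and 175 with isotype and 320, 379 and 358 in sham, with smaller changes of -0.78 ± 0.234 (0.0124), 1.29 ± 0.237 (6.05e-04) and 1.17 ± 0.236 (0.00126). The fall of Cox7a2 was not called without kidney 5 or without kidney 6. The level of Cox7a1 as a percentage of Cox7a2 was 3.75, 4.09 and 3.11 with anti-G-CSFR, 3.46, 3.34 and 3.09 with anti-C5, 1.78, 1.26 and 1.53 with isotype and 3.45, 3.78 and 3.31 in sham. The isotype ratios overlapped with none of the others. A two-sided exact permutation test gave p = 0.1 for each of the 3 comparisons, the smallest that 3 against 3 kidneys allow, and 0.176 after Benjamini-Hochberg adjustment over 30 such ratio tests. The ratio compares CPM values and does not give the relative number of molecules. The markers of striated muscle had no row in the table.

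Cox6b2, known from testis, had 13.9, 8.2 and 11.7 CPM with anti-G-CSFR, 9.38, 7.45 and 12.4 with anti-C5, 2.78, 3.5 and 4.91 with isotype and 12, 13.7 and 10.1 in sham, a change of -1.68 ± 0.265 (2.07e-04) in isotype against sham with no overlap. Cox6a2, the striated muscle isoform, had 2.91, 7.38 and 0.756 CPM with anti-G-CSFR, 2.19, 3.62 and 3.87 with anti-C5, 1.06, 0.676 and 0.319 with isotype and 1.94, 1.36 and 3.08 in sham. It was not called in isotype against sham (-1.60, 0.0663), but was by DESeq2 (-1.65, 0.026), with the 6 libraries of that comparison alone and without kidney 8 or 9 (-1.61 in each). Its rise under anti-G-CSFR (2.39 ± 0.689, 0.00953) was not called by limma-voom (1.99, 0.0553) or without kidney 8 (1.41), and its rise under anti-C5 (0.0166) not without kidney 6 (1.88). Cox5b-ps, listed at 0.222 to 3.1 CPM, was called in isotype against sham (-1.41, 0.0355) and under anti-G-CSFR (1.37, 0.0408), but not under anti-C5 (1.31, 0.0533), and its reads may be shared with Cox5b. Its isotype kidneys (0.222, 0.86 and 1.15 CPM) were all below the minimum for a row, so it had a row only through kidneys of other groups. A lower isotype level was thus favoured in advance. The same holds for Atp5l2-ps of complex V (0.611, 1.23 and 0.637 CPM with isotype). With library totals the calls of Cox5b-ps were lost in isotype against sham (-1.21) and under anti-G-CSFR (1.15). The first was also lost without kidney 1, 2, 3, 4 or 5 (-1.54 to -0.96) and the second without kidney 1, 2, 3, 4, 5 or 7 (down to 0.80, without kidney 7) and with 6 libraries alone (1.38). Under anti-C5 it was called by DESeq2 (1.32) and limma-voom (1.49) and without kidney 6, 7 or 11 (1.31 to 1.76).

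Cox8b varied widely within groups. It had 0.0661, 8.2 and 6.28 CPM in anti-G-CSFR kidneys 7, 8 and 9, 0.0705, 0 and 0.309 in anti-C5 kidneys 10, 11 and 12, 3.17, 0.0614 and 0.956 in isotype kidneys 4, 5 and 6, and 3.82, 2.34 and 1.64 in sham kidneys 1, 2 and 3. All 3 anti-C5 kidneys were below all 3 sham kidneys, and in the anti-G-CSFR and isotype groups kidneys were both high and low. It was not called in any comparison of 2 groups, and across all 4 groups its adjusted p was 0.0485. It was called in anti-G-CSFR against isotype without kidney 7 (2.34) and in anti-C5 against isotype without kidney 5 (-4.00) or kidney 7 (-3.45). Cox8b is known from brown fat, heart and muscle, and the fat genes were high in the same kidneys. Ucp1, the uncoupling protein of brown fat, had 0, 31.7 and 23.8 CPM with anti-G-CSFR, 0, 0 and 0.773 with anti-C5, 8.5, 0.0614 and 0.446 with isotype and 34.4, 19.2 and 17.9 in sham. Summed over Ucp1, Cidea and Adipoq, levels were 0.264, 48.1 and 49.5 CPM with anti-G-CSFR, 0.141, 0 and 2.24 with anti-C5, 18.9, 1.11 and 2.48 with isotype and 47.3, 25.1 and 23.4 in sham. The part of fat tissue in the Cox8b values was not tested.

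**Figure D3:**
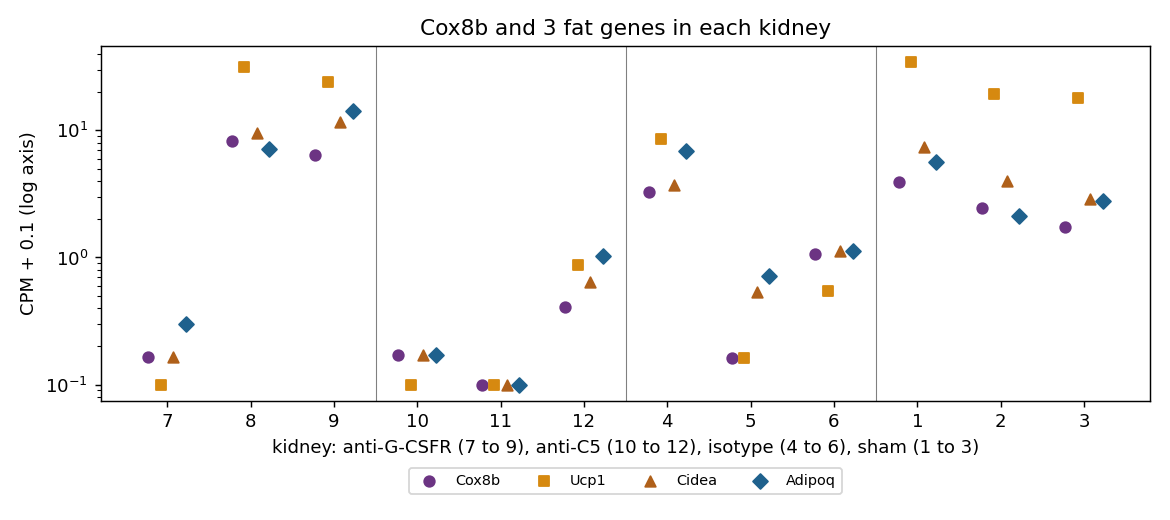
CPM + 0.1 of Cox8b and of the fat genes Ucp1, Cidea and Adipoq (y axis, log scale) in each of the 12 kidneys (x axis), ordered by group with grey lines between groups; colours and shapes mark genes. The 4 genes are high together in kidneys 8 and 9, 4 and 1 to 3, and near the floor in kidneys 7, 10 and 11.

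In complex V, 16 of 18 members fell in isotype against sham (median -0.86), and all 18 rose under anti-G-CSFR (1.24) and anti-C5 (1.15). The medians of isotype against sham were -0.88 for the 5 genes of the catalytic F1 head, -0.94 for the 4 of the peripheral stalk, -0.83 for the 3 of the c-ring and -0.78 for 5 small membrane subunits. Atp5a1, the alpha subunit of the head, had 2640, 2580 and 2280 CPM with anti-G-CSFR, 2670, 1960 and 2550 with anti-C5, 1320, 1250 and 1200 with isotype and 2650, 2680 and 2750 in sham. Its change was -1.10 ± 0.142 (5.38e-05) in isotype against sham, and all 3 anti-G-CSFR kidneys were below sham. Atp5b, the catalytic beta subunit, had 3820, 3740 and 3150 CPM with anti-G-CSFR, 3900, 2820 and 3790 with anti-C5, 2080, 2080 and 2000 with isotype and 3680, 3760 and 3910 in sham. It changed by -0.88 ± 0.149 (3.45e-04), and the isotype kidneys were close together and far below the rest. Atp5e, the smallest subunit of the head, had 338, 363 and 261 CPM with anti-G-CSFR, 263, 220 and 426 with anti-C5, 195, 98.8 and 108 with isotype and 185, 233 and 205 in sham. With kidney 4 inside the sham range, its change of -0.63 ± 0.281 (0.068) was not called.

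The c-ring, the proton-driven rotor, is built from a peptide that 3 genes encode with different import sequences. Atp5g1 had 397, 392 and 295 CPM with anti-G-CSFR, 344, 272 and 414 with anti-C5, 150, 103 and 92.3 with isotype and 280, 310 and 312 in sham, with changes of -1.38 ± 0.203 (1.28e-04), 1.65 ± 0.204 (4.74e-05) and 1.58 ± 0.204 (8.04e-05) for isotype over sham, anti-G-CSFR over isotype and anti-C5 over isotype. Atp5g3 had 1130, 1070 and 836 CPM with anti-G-CSFR, 943, 791 and 1220 with anti-C5, 542, 476 and 470 with isotype and 826, 912 and 917 in sham, with changes of -0.83 ± 0.169 (0.00117), 1.03 ± 0.17 (3.09e-04) and 0.99 ± 0.17 (4.73e-04). For both, the isotype kidneys were below all others. Atp5g2 had 106, 110 and 91.8 CPM with anti-G-CSFR, 98, 82.4 and 116 with anti-C5, 82.6, 61.1 and 59.8 with isotype and 82, 85 and 90.3 in sham. Kidney 4 lay within the sham range, and the change of -0.34 ± 0.148 (0.0645) was not called, although it was without kidney 4 (-0.50). Against isotype it rose by 0.60 ± 0.148 (0.00414) under anti-G-CSFR and by 0.54 ± 0.148 (0.00773) under anti-C5, the smallest rises of complex V.

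The ratio of Atp5g1 to Atp5g2, in percent of CPM, was 375, 355 and 321 with anti-G-CSFR, 351, 330 and 355 with anti-C5, 182, 169 and 154 with isotype and 341, 365 and 346 in sham. The isotype kidneys, kidney 4 included, lay far below the other 9, which overlapped. The mean log2 ratio differed by -1.06 for isotype over sham, by 1.06 in anti-G-CSFR against isotype and by 1.04 in anti-C5 against isotype, each with p = 0.1 by a two-sided exact permutation test, the smallest possible, and 0.176 after adjustment. The ratio of Atp5g1 to Atp5g3 was 35.2, 36.6 and 35.3 with anti-G-CSFR, 36.5, 34.4 and 33.9 with anti-C5, 27.7, 21.6 and 19.6 with isotype and 33.9, 34 and 34.1 in sham. The differences of the mean log2 ratio were -0.58, 0.65 and 0.62, with the same p. The 3 anti-G-CSFR kidneys were close together here although their Atp5g1 levels differed.

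**Figure D4:**
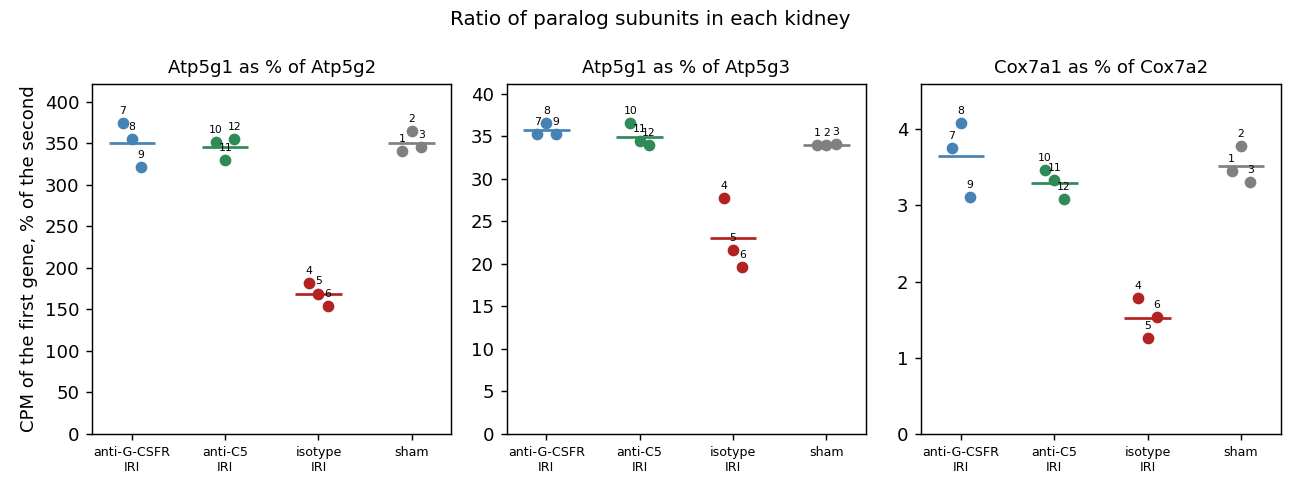
The level of Atp5g1 as a percentage of Atp5g2 (left), of Atp5g1 as a percentage of Atp5g3 (middle) and of Cox7a1 as a percentage of Cox7a2 (right), from CPM; each point is 1 kidney, numbered, bars are group means, and groups run from anti-G-CSFR through anti-C5 and isotype to sham. In each panel the 3 isotype kidneys lie below the other 9.

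Against sham, neither antibody group differed in any gene by edgeR at an adjusted p below 0.05 (0 of 13124, 0%), and DESeq2 and limma-voom called 0 members too. At an unadjusted p below 0.05, 14 members differed in anti-G-CSFR against sham (5.93% of all genes) and 3 in anti-C5 against sham (11.3%). The median log2 change of the members was 0.32 in anti-G-CSFR against sham and 0.25 in anti-C5 against sham, beside -0.01 and 0.01 for all genes. All 3 anti-G-CSFR kidneys were above all 3 sham kidneys for 25 members (9.47% of all genes) and below them for 4 (8.90%), Ndufa4l2, Ndufs1, Sdha and Atp5a1. In anti-C5 against sham these counts were 5 (9.36%) and 2 (8.59%), the 2 being Sdha and Cox8b. With 1 kidney left out the medians ran from 0.24 to 0.47 and from 0.05 to 0.40, and the members at an unadjusted p below 0.05 numbered 0 to 38 and 1 to 32. Without kidneys 9 and 11, which were the lowest of their groups for most members, the medians were 0.47 and 0.41. Then 57 and 42 members were at an unadjusted p below 0.05 by edgeR, and 0 at the adjusted threshold. The shares of all genes at an unadjusted p below 0.05 are not given for these reduced sets of kidneys, so these counts cannot be set against them.

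By kidney, 75 members in kidney 7, 71 in kidney 8 and 26 in kidney 9 were above all sham kidneys, where 30.6%, 30.5% and 31.1% of all genes were. In anti-C5 kidneys 10, 11 and 12, 67, 7 and 75 members were so, where 27.0%, 37.9% and 34.8% of all genes were. The count in kidney 9 was thus near the share of all genes and that in kidney 11 below it. The proximal tubule sums given above were lowest in the same kidneys, in kidney 9 mainly through Kap. In anti-G-CSFR against anti-C5, edgeR called 0 of 13124 genes (0%), and DESeq2 and limma-voom called 0 members. At an unadjusted p below 0.05 there was 1 member, Cox8b (1.58% of all genes). The median log2 change was 0.07 beside -0.01 for all genes, and it ran from -0.08 to 0.28 with 1 kidney left out, so its sign was not stable. The groups failed to overlap for no member (1.90% of all genes higher and 2.38% lower). This does not show that the antibody groups were alike.

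Within complexes, the members that stood above sham under the antibodies were mostly small subunits. In anti-G-CSFR against sham, the 29 accessory members of complex I had a median of 0.35 and its 7 catalytic members 0.04, and the 5 accessory members of complex III 0.35 and its 3 core members 0.04. The 5 small membrane subunits of complex V had a median of 0.50, with Atp5md at 0.62 and Atp5k at 0.58, whereas Atp5b was at -0.08. None of these changes was called. Coding length (the longest coding sequence in the GENCODE vM21 annotation) was found for 81 members, and the classes were chosen after the data were seen. In anti-G-CSFR against sham the median log2 change was 0.50 for the 24 members of up to 300 nt, 0.33 for the 37 of 301 to 600 nt and 0.04 for the 20 of over 600 nt. Over all genes of known coding length, the members included, the same medians were 0.33 (236 genes), 0.19 (1297) and -0.03 (11016). The table as a whole thus differed with length in the same direction. In anti-C5 against sham the members had 0.35, 0.26 and 0.04, beside 0.33, 0.22 and -0.02 for all genes.

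In isotype against sham the medians of the members were -0.79, -0.85 and -1.03 in these 3 classes, beside -0.16, 0.02 and 0.05 for all genes. Spearman's rho of the log2 change with coding length was -0.68 over members in anti-G-CSFR against sham (-0.43 over 12549 genes), -0.60 in anti-C5 against sham (-0.38), and -0.51 in isotype against sham (0.06). These are descriptions across genes, which share the same libraries and are not replicates. The length also separated kidneys of 1 group: kidney 4 exceeded the mean of kidneys 5 and 6 by a median of 0.63, 0.52 and 0.20 in the 3 classes of members, beside 0.42, 0.25 and -0.02 for all genes. Against isotype the medians of the members were 1.23, 1.18 and 1.12 with anti-G-CSFR, beside 0.39, 0.17 and -0.07 for all genes. With anti-C5 they were 1.08, 1.11 and 1.09, beside 0.37, 0.19 and -0.06. RNA integrity was not given per kidney in the labels, and the part of library preparation in these values was not tested.

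**Figure D5:**
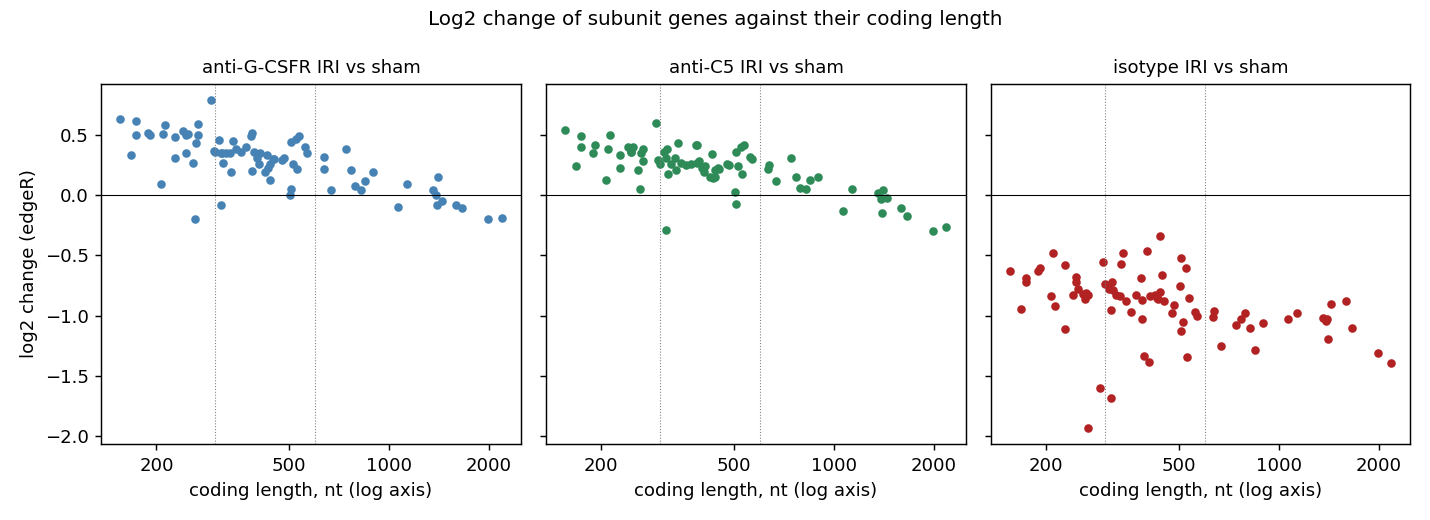
Log2 change (y axis) of 80 members against coding length in nucleotides (x axis, log scale) in anti-G-CSFR against sham (left), anti-C5 against sham (middle) and isotype against sham (right); each point is 1 gene, dotted lines stand at 300 and 600 nt, and Cox8b is left out for its scale. In the left and middle panels most short genes lie above 0, with Ndufa4l2 (-0.20, left) and Cox6b2 (-0.08 left, -0.29 middle) among the exceptions, and the longest lie below it, and in the right panel all lie below 0.

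Genes that build or serve the chain were measured beside it. Ndufab1, the acyl carrier protein in complex I, had 207, 192 and 145 CPM with anti-G-CSFR, 178, 146 and 245 with anti-C5, 89.2, 59.9 and 58.2 with isotype and 146, 169 and 178 in sham, a change of -1.25 ± 0.216 (4.05e-04) in isotype against sham. Cytochrome c1 (Cyc1, -0.88), the ATPase inhibitor Atpif1 (-0.70) and cytochrome c (Cycs, -0.56) fell as well, the call of Cycs being lost without kidney 3 (-0.48) or 5 (-0.51). Of the assembly factors, 11 of 17 for complex I, 2 of 4 for complex II, 3 of 6 for complex III, 9 of 22 for complex IV and 5 of 5 for complex V fell in isotype against sham, where 30.7% of all genes did. Their medians, -0.58, -0.47, -0.52, -0.46 and -0.59, were nearer 0 than those of the subunits. Uqcc2 (0.57) and Ttc19 (0.28), both factors for complex III, were called as higher, but neither was without kidney 1, 2, 3, 4 or 9. Under anti-G-CSFR against isotype 15, 2, 4, 16 and 5 of these factors rose (31.5% of all genes did) and under anti-C5 16, 2, 4, 16 and 5 (30.5%). Lyrm7, which matures the Rieske protein, had 7.99, 7.09 and 6.88 CPM with anti-G-CSFR, 6.35, 8.03 and 10.4 with anti-C5, 3.72, 1.17 and 1.72 with isotype and 6.64, 7.27 and 7.12 in sham, the largest fall among them (-1.65 ± 0.328, 0.00102). Isotype kidneys 5 and 6 were below the minimum of about 2 CPM for a row, so a lower isotype level of Lyrm7 was favoured in advance.

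The enzymes of the tricarboxylic acid cycle, which supplies NADH and succinate, fell in 17 of 18 genes in isotype against sham (median -0.96), where 30.7% of all genes did. Under each antibody against isotype 16 rose, where 31.5% of all genes did for anti-G-CSFR and 30.5% for anti-C5. Idh2 (isocitrate dehydrogenase) changed by -1.79 in isotype against sham, a larger fall than the -1.31 of Sdha. Against sham the cycle's medians were -0.08 with anti-G-CSFR and -0.14 with anti-C5, below the 0.32 and 0.25 of the subunits. The subunits of over 600 nt had medians of 0.04 in each, and coding length was not compared between the 2 lists. Among 18 regulators of mitochondrial biogenesis and transcription, 10 fell and 3 rose in isotype against sham, where 30.7% and 32.1% of all genes did. The coactivator Ppargc1a had 83.1, 87 and 87.5 CPM with anti-G-CSFR, 93, 61.7 and 74.8 with anti-C5, 26.8, 39.3 and 43.9 with isotype and 101, 88.8 and 105 in sham, a change of -1.42 ± 0.178 (4.44e-05). Unlike the subunits, it was lowest in kidney 4. The estrogen-related receptors Esrra (-1.39) and Esrrg (-1.49), which bind the ERR motif, also fell, as did Tfam (-0.56), which packages mitochondrial DNA. Pprc1, a related coactivator, went the other way, with 16.9, 16.6 and 23.5 CPM with anti-G-CSFR, 18.7, 26.5 and 17.3 with anti-C5, 55.9, 50.1 and 47.8 with isotype and 16.8, 15.7 and 16.3 in sham (1.66 ± 0.169, 1.23e-05). Nrf1 rose by 0.30 ± 0.0993 (0.0212) in isotype against sham, a call lost without kidney 1, 2 or 5. Gabpa, a subunit of GABP, was not called in isotype against sham or in either antibody group against isotype, but with library totals it was called as lower in anti-G-CSFR (-0.24, 0.0291) and anti-C5 (-0.25, 0.0272) against isotype.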

How the data were processed

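RNA of 12 whole kidneys was sequenced from strand-specific libraries as single reads of 100 bp, per the labels' protocols. Per the submitters' processing notes the authors used TopHat2 2.1.0, Bowtie2 2.2.5 and featureCounts with GRCm38.p4; the sources used here do not state how strand or shared reads were handled in counting. The deposited values are raw counts for 13124 genes by Entrez identifier, 13074 of which had a RefSeq symbol. The third-highest CPM was at least 2.01 in every gene (2.21 among members), so low genes had been removed at about 2 CPM in 3 libraries before deposit, and members below that were not seen.

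Groups came from the labels, with 3 kidneys each. Within groups, kidney pairs had chi-squares of 5.45 to 65.3 per degree of freedom, above sampling noise, so each counted as 1 replicate. The series' design text gives 3 mice a group.

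Counts were fitted in edgeR 4.0.16 (R 4.3.3) with TMM factors (0.921 to 1.11), robust quasi-likelihood over all 12 libraries and 8 residual degrees of freedom. The biological coefficient of variation was 16.4%, filterByExpr removed 0 genes, and BH adjustment ran over all genes at a threshold of 0.05. CPM values are TMM-scaled, medians per kidney use log2 CPM with a prior count of 2, and SE is computed from the log2 change and its statistic. The fit was tested on simulated counts. Alternatives were RLE, upper-quartile and library-total scaling, a 10 CPM filter, DESeq2 1.42.0, limma-voom (limma 3.58.1), 6 libraries alone, and each kidney left out. Reads of 9 members with a named pseudogene may be shared. Named members were those with the 2 largest non-overlapping changes a complex, fixed core subunits and paralog pairs, and of each other list the 2 called genes of smallest p with a few fixed regulators; any other gene was picked with its values known. Some genes that this rule names are not reported here. The members and lists were chosen with earlier results of these data known.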

Additional observations from a re-analysis of the deposited data

How the results depend on the processing

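No paired analysis was possible because kidneys were numbered 1 to 12 across the study and no number occurs in 2 groups. Leaving out 1 kidney at a time gave 62 to 82 called members in isotype against sham, 81 to 83 in anti-G-CSFR against isotype and 82 to 84 in anti-C5 against isotype, and 0 in the 3 other comparisons. The medians then ran from -1.08 to -0.80, from 1.10 to 1.39 and from 0.90 to 1.27. In anti-G-CSFR against anti-C5 the median ran from -0.08 to 0.28. Without kidneys 4, 9 and 11 together, chosen after the data were seen, the medians of the antibody comparisons against isotype moved to 1.54 for anti-G-CSFR and 1.44 for anti-C5. Library totals in place of TMM moved the median of all genes to 0.227 in isotype against sham, with 68 members falling and a member median of -0.68. Among the list genes, Gabpa turned positive in isotype against sham with library totals (0.09) and in anti-G-CSFR against isotype without kidneys 9 and 11 (0.02), and ran there from -0.09 to 0.03 with 1 kidney left out (0.03 without kidney 6, 0.02 without kidney 9). Ucp2 turned positive in isotype against sham with library totals (0.09) and without kidneys 4, 9 and 11 (0.14), and ran there from -0.36 to 0.18 with 1 kidney left out (0.18 without kidney 1, 0.15 without kidney 4). In anti-C5 against isotype it ran from -0.41 to 0.04, the highest without kidney 5. Ucp2 was not called in the comparisons named, and Gabpa was called with library totals in anti-G-CSFR (-0.24) and anti-C5 (-0.25) against isotype. Uqcc2 turned negative in anti-G-CSFR against isotype with library totals (-0.02). mt-Rnr1 did so in anti-C5 against isotype with library totals (-0.11), and ran there from -0.12 to 0.30 with 1 kidney left out (-0.12 without kidney 12, -0.02 without kidney 5). The cause was not tested. With 3 kidneys a group and 8 residual degrees of freedom, smaller differences between the antibody groups and sham could not be resolved.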

Other observations

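The ribosomal RNAs that mitochondrial DNA encodes were not called as lower in isotype against sham. Summed over mt-Rnr1 and mt-Rnr2, levels were 3880, 4780 and 3320 CPM with anti-G-CSFR, 2310, 3580 and 4490 with anti-C5, 3270, 2450 and 2980 with isotype and 2330, 2720 and 2100 in sham. In isotype against sham mt-Rnr1 was called as higher by 0.55 ± 0.217 on the log2 scale (edgeR adjusted p = 0.0428), and mt-Rnr2 was not called (0.14, 0.634). The call of mt-Rnr1 did not hold when kidney 1, 2, 3, 4, 6, 7 or 8 was left out (0.44 to 0.62). How much ribosomal RNA the library preparation removed is not known for each kidney.

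Of 7 genes on a list of targets and regulators of the hypoxia-inducible factor, 3 fell and 1 rose in isotype against sham, where 30.7% and 32.1% of all genes did. Bnip3, a mitophagy receptor, had 339, 339 and 298 CPM with anti-G-CSFR, 244, 229 and 442 with anti-C5, 90.8, 86.2 and 76.5 with isotype and 309, 273 and 263 in sham (-1.74 ± 0.215, 4.10e-05). Pdk1, a pyruvate dehydrogenase kinase, fell as well (-0.90 ± 0.15, 3.11e-04). The carriers that exchange ADP and ATP, Slc25a4 (-0.56) and Slc25a5 (-1.06), and the outer membrane channel Vdac1 (-1.10) fell. Under each antibody against isotype 4 of 6 genes of that list rose, where 31.5% of all genes did for anti-G-CSFR and 30.5% for anti-C5.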
